A study of Danio rerio with 4 samples.

Results

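Cassette exons longer than 60 bases were followed in the hearts of zebrafish larvae after ventricular injury and treatment with SIS3, an inhibitor of Smad3 phosphorylation. A cassette exon is one that some transcripts of a gene include and others skip. Of 2672 events in which an exon of more than 60 bases was included, 2195 had a partner event that joined the same flanking exon ends without it. The 754 exon events analysed were those whose included and skipped forms summed to at least 5 FPKM (sequenced fragments per length of transcript and depth of library) in all 4 libraries, 34.4% of the 2195. They covered 745 distinct exons in 634 genes, out of 1233 events of any length that met the same minimum. The inclusion share of an exon was the FPKM of the included form as a percent of the FPKM of both forms, so it measures the balance of the forms and not the level of the gene.

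All larvae carried Tg(vmhc:mCherry-NTR), in which the promoter of the ventricular myosin heavy chain gene drives nitroreductase, which makes metronidazole (MTZ) toxic to the cells that express it, so that injury is aimed at ventricular cardiomyocytes. The 4 groups were uninjured hearts given DMSO or SIS3 and injured hearts given DMSO or SIS3, all taken at 5 days post fertilization. Injured larvae had spent 4 hours in 5 mM MTZ, starting 72 hours after fertilization. SIS3 at 2 µM, or 0.2% DMSO as its vehicle, was then given from 76 to 124 hours, which places the injured hearts 2 days after treatment. The labels do not say whether uninjured larvae received MTZ, nor how many hearts made up a library. Each group had 1 library, so the differences have no replicate check and no p-value is given. Where 4 values stand in a row, the uninjured libraries come first and the injured ones second, each with DMSO before SIS3.

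Splicing joins the exons of a transcript and removes the introns between them. Whether a cassette exon is kept is set largely by proteins that bind the transcript near its splice sites, such as the SR proteins and the RBFOX, CELF and MBNL families, and many muscle genes switch cassette exons as the heart matures. Within the coding sequence, an exon whose length is divisible by 3 can be kept or skipped without shifting the reading frame. Another length shifts it there and often exposes a premature stop codon.

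The 5 measured genes of the ventricular cardiomyocyte list were present in all 4 libraries, at a summed level of 6250, 5330, 8120 and 7680 scaled FPKM. The list has 8 symbols, and vmhc, whose promoter drives nitroreductase, is not among the 5 that were measured. Whether those 5 are confined to the ventricle was not tested, so the sum is not taken as a measure of ventricular cells. Within that list nppa (1070, 1090, 3440 and 3530) and nppb (109, 100, 1830 and 1540), which encode natriuretic peptides, were higher after injury, whereas myl7 (5000, 4080, 2810 and 2560), hey2 (29.5, 30.6, 5.94 and 6.44) and tbx20 (50, 40.5, 41.7 and 41.4) were lower or level. The 3 atrial cardiomyocyte genes summed to 26.7, 16, 83.5 and 83.1. Of these, myh6 (0, 0, 16.9 and 26.2) and smtnl1 (13.5, 9.19, 57.5 and 50.8) were higher after injury, and nr2f2 (13.3, 6.76, 9.09 and 6.1) was not. Genes of other tissues were present too and differed between libraries. The 10 neural and eye genes summed to 190, 144, 0 and 5.68, with 10 of 10 at 0 in injured DMSO. The 12 liver genes summed to 393, 214, 245 and 2480, and the 8 exocrine pancreas genes to 1780, 1930, 239 and 595. Skeletal muscle genes (7 measured) summed to 1000, 781, 324 and 491, and skin genes (8 measured) to 2630, 1290, 684 and 644. Macrophage genes (12 measured) stood at 52.3, 48.8, 356 and 241, and fibroblast and epicardium genes (7 measured) at 288, 274, 826 and 657. The part of these tissues in any exon difference below was not tested, and with bulk hearts fewer cells of a type and less RNA per cell cannot be told apart.

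The exons ranged from 61 to 3681 bases, with a median of 103, and 98 were longer than 200 bases. The introns beside them had median lengths of 1954 bases on one side and 2084 on the other. In 546 genes 1 exon was measured and in 88 genes 2 or more, up to 4 in WNK1, a kinase that regulates ion transport. A form that was not listed in a library counted as 0 there. The included form was at 0 in 94, 88, 132 and 99 exons, and both forms were listed in all 4 libraries for 349 (46.3%). Included events over 60 bases numbered 2090, 2174, 1814 and 1950 before pairing, the fewest in injured DMSO. The summed level of both forms had medians of 11.6, 13.2, 12.7 and 12.8 FPKM. Just inside the minimum lay exons of PPARD (77 bases, 5.02 FPKM in its lowest library), mia2 (126 bases, 5.02) and ctbp2a (71 bases, 5.02), whose shares were 14.9%, 33.9%, 38.2% and 24.6% for PPARD. Just outside lay exons of si:ch211-160i2.4 (162 bases, 4.999), CAMK2B (69 bases, 4.98) and PPP1R13B (150 bases, 4.98).

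In most of these exons the inclusion share moved by less than 20 points over the 4 libraries. The median share was 52.0%, 52.6%, 50.6% and 48.7%. The difference between an exon's highest and lowest share had a median of 11.4 percentage points, against 14.4 for the 479 exons of up to 60 bases. In 197 exons (26.1%) it was under 5 points, in 193 (25.6%) at least 20 points, and in 16 at least 50 points. The 5 steadiest of the 83 exons that lay between 20% and 80% in every library were in CELF1, phactr4a, WDR37, MBTD1 and RNF111. CELF1, itself an RNA-binding regulator of splicing, included an exon of 123 bases (chromosome 7, 38289841 to 38289963, minus strand) at 43.4%, 47.1%, 43.5% and 46.5%, while the summed level was 32.6, 41.2, 24.6 and 35.2 FPKM. The 81-base exon of phactr4a, a regulator of actin and protein phosphatase 1, stood at 74.1%, 76.0%, 77.8% and 76.6%. Coordinates are those of the deposited tables, on the build GRCz10 that the submitters' processing notes name, and no annotation of that build was used, so the place of an exon within the coding sequence or an untranslated region is not given.

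A length divisible by 3 was found in 469 exons (62.2%), against 79.3% of the exons of up to 60 bases. Exons of divisible length more often stood at an intermediate share. The mean share over the 4 libraries lay between 20% and 80% in 145 of the 469 (30.9%) and in 45 of the 285 exons of other lengths (15.8%). This difference was 13.4, 16.3, 12.8 and 14.6 points when each library was taken alone. Mostly included exons (a mean share of 80% or more) made up 35.4% of the divisible and 44.6% of the other exons, and mostly skipped exons (20% or less) made up 33.7% and 39.6%. The median share was 46.2%, 47.1%, 46.3% and 46.3% for divisible lengths and 61.8%, 64.9%, 62.1% and 59.8% for the others. That gap in the medians, 15.7 points in the mean share, was 0.2 points when both forms had to sum to at least 10 FPKM. The share of exons between 20% and 80% still differed by 14.5 points at that minimum.

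**Figure D1:**
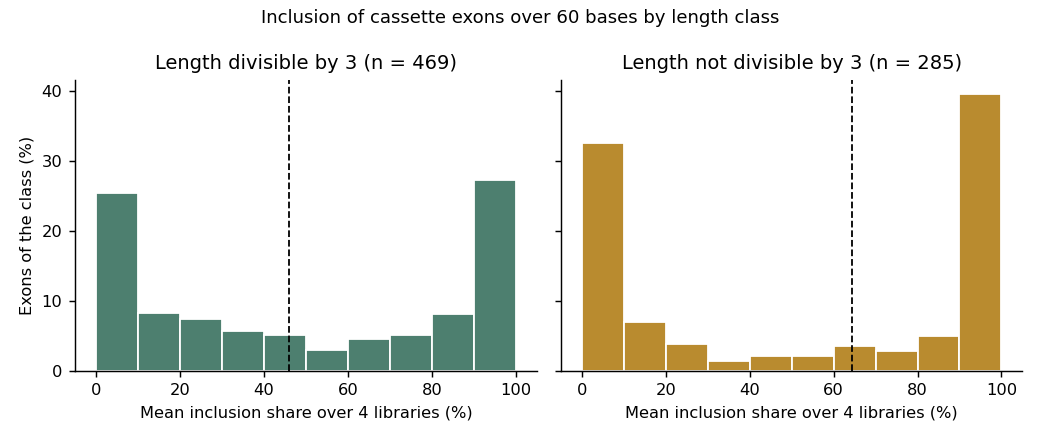
Percent of exons (vertical axis) by mean inclusion share over the 4 libraries in bins of 10 points (horizontal axis), for the 469 exons of a length divisible by 3 and the 285 others; the dashed line is the median. Both classes pile up at the ends, and the divisible class holds more exons between 20% and 80% (30.9% against 15.8%).

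Differences of 20 points or more, the size at which an exon is counted as differing throughout, were more frequent among exons of divisible length in all 4 comparisons. For injury in DMSO the percents were 13.9 for divisible and 8.42 for other lengths, and for injury in SIS3 12.2 and 9.82. For SIS3 without injury they were 8.53 and 6.32, and for SIS3 after injury 11.1 and 7.02. The comparisons share libraries, so these 4 are not separate observations. Exons of divisible length were more often at an intermediate share, as given above, and the part of that in these percents was not tested. Among exons of up to 60 bases the order was reversed for SIS3 after injury, at 11.6 for divisible and 15.2 for other lengths. In the remaining comparisons it was the same there.

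The first comparison asked which exons differ between injured and uninjured hearts. In DMSO, 41 exons had a higher share after injury by at least 20 points and 48 a lower one, 89 or 11.8% of the 754. Over cassette exons of any length the percent was 14.4 (6.65 higher and 7.79 lower), so the longer exons lay below that background. In SIS3, 38 were higher and 47 lower, 11.3% against a background of 13.1% (6.08 higher and 7.06 lower). A form was at 0 in a library of the pair for 24 of the 89 exons in DMSO and 32 of the 85 in SIS3. Among exons of up to 60 bases 18.6% and 16.1% differed. The percents were lower at higher expression in DMSO, from 15.6% of the 398 exons with a lowest summed level of 5 to 10 FPKM to 6% of the 50 exons at 50 FPKM or more. In SIS3 they were 12.8% and 12% in the same classes.

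The injury pairs in DMSO and in SIS3 have no library in common. In both pairs 23 exons differed in the same direction, 9 higher and 14 lower after injury, and 3 differed in opposite directions. They are 3.05% of the exons, against 3.41% of cassette exons of any length (1.62% higher and 1.78% lower), so the share of exons is near the background and what follows describes single exons. The 23 make up 25.8% of the exons that differed in DMSO and 27.1% of those that differed in SIS3. Of the 89 exons that differed in DMSO, 65 lay on the same side in SIS3, 18 on the other side and 6 at no difference. Across the 754 exons Pearson's r between the pairs was 0.26, given as a description since exons of a library are not independent. In 17 of the 23 both forms were listed in every library, against 46.3% of all exons. An exon with the same form unlisted in both libraries of a pair cannot differ in that pair. The selection itself thus favours exons with both forms listed, and nothing is concluded from this contrast.

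**Figure D2:**
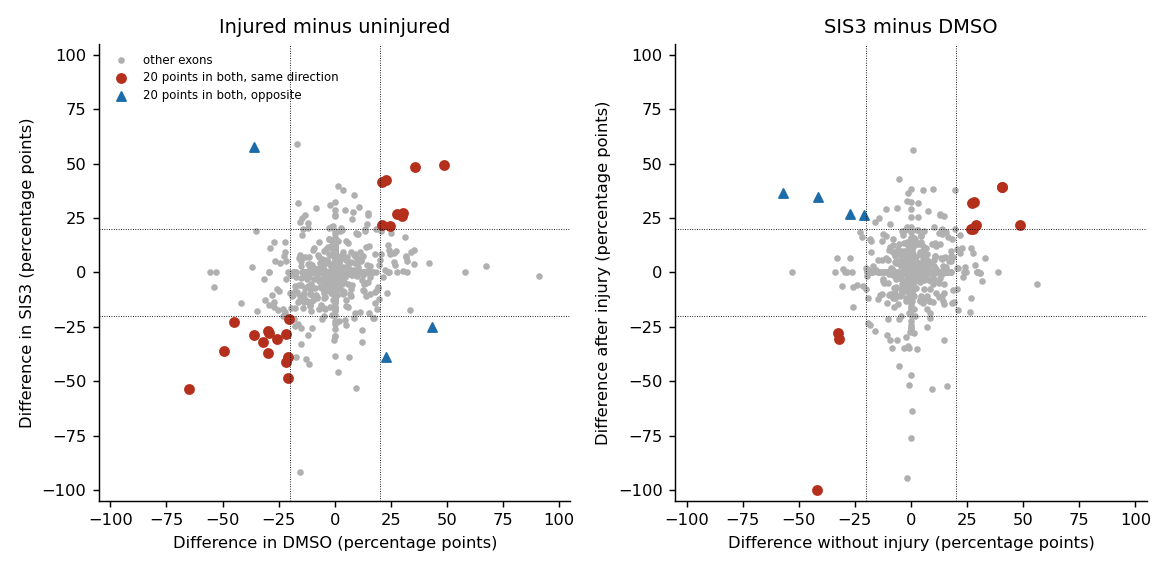
Difference in inclusion share (percentage points) of each of the 754 exons in pairs of comparisons that share no library: injured minus uninjured in DMSO and in SIS3 (left), and SIS3 minus DMSO without and after injury (right). Dotted lines mark 20 points; red points passed it in both with the same sign (23 and 11 exons) and blue triangles with opposite signs (3 and 4 exons).

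Among the 9 exons that were higher after injury, the largest difference present in both pairs was in mprip, which encodes a protein that binds actin and targets myosin phosphatase to stress fibres. Its 2136-base exon (chromosome 12, 501924 to 504059, plus strand) was included at 22.3%, 14.6%, 70.9% and 63.8%. The included form was at 2.62, 1.99, 10.6 and 8.93 FPKM and the skipped form at 9.13, 11.6, 4.37 and 5.06 FPKM. Both injured libraries were therefore above both uninjured ones in the share and in the included form, while the summed level was close to level, at 11.8, 13.6, 15.0 and 14.0 FPKM.

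MYBPC3 encodes cardiac myosin-binding protein C, which sits in the thick filament of the sarcomere. Its 66-base exon (chromosome 7, 31605239 to 31605304, plus strand) was included at 57.7%, 40.7%, 80.5% and 83.4%, the injured libraries again above both uninjured ones. Here the summed level differed as well, at 192, 340, 71.1 and 87.4 FPKM. The included form stood at 111, 139, 57.2 and 72.9 FPKM and the skipped form at 81.2, 202, 13.8 and 14.5 FPKM, so that the skipped form was the one that differed most. The summed level of skeletal muscle markers was lower and that of atrial markers higher in the injured libraries, as given above. Not every gene followed its sum. Skeletal muscle pvalb2 stood at 90.7, 41.7, 49.5 and 124 scaled FPKM, and atrial nr2f2 at 13.3, 6.76, 9.09 and 6.1. Of the measured genes on the ventricular cardiomyocyte list, myl7 (5000, 4080, 2810 and 2560) and hey2 (29.5, 30.6, 5.94 and 6.44) were lower in the injured libraries. There nppa and nppb were higher and tbx20 was nearly level. The part of these tissues and cells in this exon was not tested.

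Other exons with a higher share after injury were found in genes of RNA binding, cell division and transcription. The 364-base exon of rbm14a, an RNA-binding protein gene, stood at 64.2%, 51.6%, 100% and 100%. The 870-base exon of rbm4.1, a splicing regulator gene, stood at 46.2%, 46.6%, 67.2% and 68.4%. The 192-base exon of cenpe, a kinesin that moves chromosomes in mitosis, stood at 48.1%, 38.9%, 69.0% and 80.5%. In each of these genes both injured libraries were above both uninjured ones, although the differences in DMSO for rbm4.1 and cenpe were 19.5 and 19.3 points once 0.5 FPKM was added to each form. The exons of BNC2 (74 bases, a zinc finger gene) and mzt2b (129 bases, a gene of the γ-tubulin ring complex) behaved alike, at 31.3%, 32.6%, 61.5% and 59.8% and at 72.0%, 72.9%, 99.8% and 99.8%. The 110-base exon of mark3a, a kinase gene of the microtubule-affinity family, was at 19.2%, 0%, 49.3% and 25.8%. With all events of this exon summed over their flanking ends its difference in SIS3 was 16.8 points.

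A member of the spectrin-binding band 4.1 family, epb41b, held 3 neighbouring exons of 246 bases each. The middle one was at 75.3%, 78.5%, 100% and 100%. The first was at 78.3%, 100%, 82.9% and 100%, and the last at 80.3%, 75.1%, 100% and 78.5%. Exons of equal length in a row may share reads, so the assignment among the 3 is uncertain, and with the events of the middle exon summed its difference in SIS3 was 55.2 in place of 21.5 points.

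**Figure D3:**
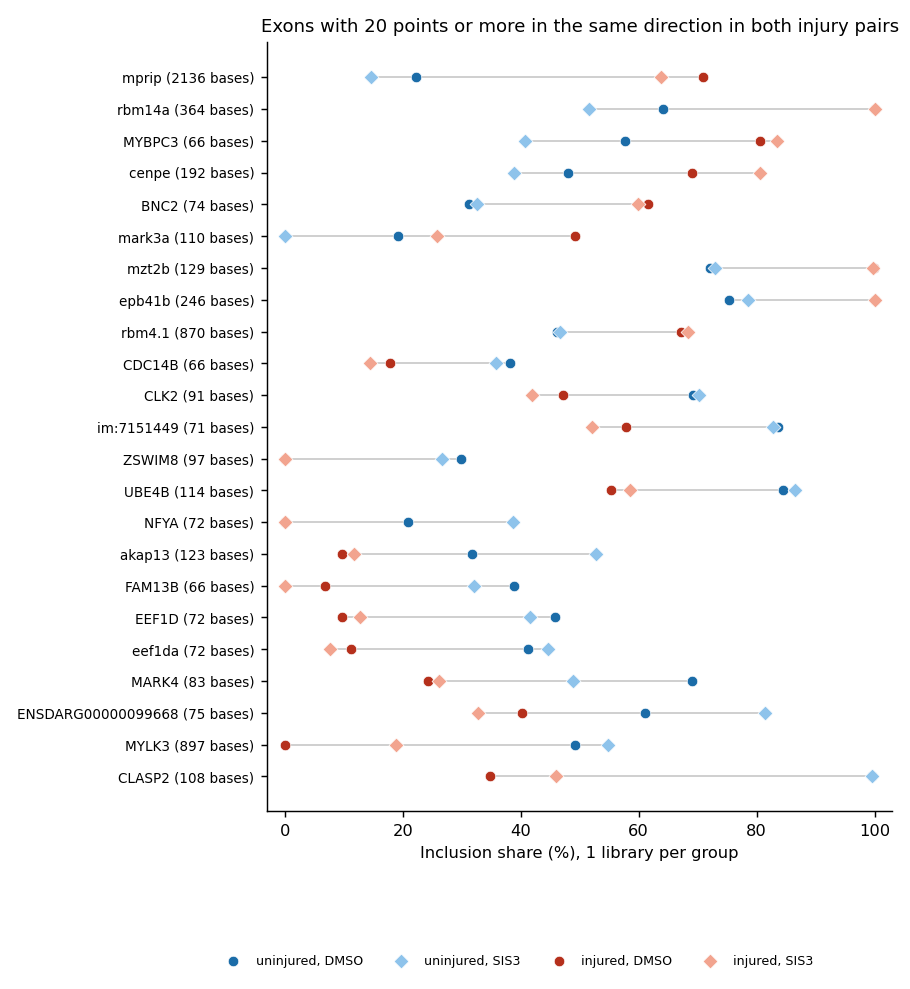
Inclusion share in each of the 4 libraries (horizontal axis, percent) for the 23 exons that differed by 20 points or more in the same direction in both injury pairs; circles are DMSO, diamonds SIS3, blue uninjured and red injured, and a later symbol can cover an earlier one at the same value. The upper 9 exons are higher and the lower 14 lower in both injured libraries.

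The most highly expressed exons with a lower share after injury came from a pair of duplicated genes for the δ subunit of translation elongation factor 1, which helps reload the factor with GTP. The 72-base exon of eef1da (chromosome 2, 51280304 to 51280375, plus strand) was included at 41.2%, 44.6%, 11.3% and 7.60%. Its counterpart in EEF1D, also of 72 bases (chromosome 20, 52762723 to 52762794, plus strand), was included at 45.9%, 41.6%, 9.79% and 12.7%. In both genes both injured libraries lay far below both uninjured ones. The included form was lower in both injured libraries as well, with eef1da at 46.6, 67.9, 18.3 and 18.5 FPKM and EEF1D at 54.9, 41.6, 8.21 and 8.83 FPKM. The skipped form was at 66.4, 84.5, 144 and 225 FPKM for eef1da and at 64.8, 58.4, 75.6 and 60.6 FPKM for EEF1D. The sequences of the 2 genes were not compared. Reads could be split between the genes if the copies are alike, so the 2 exons are not counted as separate evidence here. The neural and eye marker genes, at 190, 144, 0 and 5.68 scaled FPKM, were low in the same libraries, and their part was not tested.

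CLASP2, whose protein stabilises microtubule ends, went from nearly full inclusion to an intermediate share. Its 108-base exon (chromosome 19, 43197457 to 43197564, plus strand) stood at 99.5%, 99.6%, 34.7% and 46.0%. The skipped form was nearly missing from the uninjured libraries, at 0.031 and 0.028 FPKM, and reached 7.24 and 6.43 FPKM in the injured ones, while the included form was at 6.08, 6.89, 3.85 and 5.49 FPKM.

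MYLK3 encodes the cardiac myosin light chain kinase, which phosphorylates the regulatory light chain of the ventricle. An exon of 897 bases (chromosome 7, 41570738 to 41571634, minus strand) stood at 49.2%, 54.9%, 0% and 18.9%. A form of the same exon longer by 3 bases competes for the same skip, and with both forms pooled the share was 54.3%, 60.3%, 32.9% and 31.8%. The injured libraries remained below the uninjured ones in the pooled share, by a smaller margin. ldb3b, which encodes a protein of the Z-disc, had a 302-base exon (chromosome 12, 25949009 to 25949310, minus strand) at 22.9%, 19.9%, 0% and 0%. The included form of ldb3b was at 24.1 and 28.3 FPKM in the uninjured libraries and was not listed in the injured ones, where the skipped form was at 42.2 and 44.9 FPKM. Its share was thus 22.9 points lower in DMSO and 19.9 points lower in SIS3.

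The remaining exons that were lower after injury had a lowest summed level of 5.67 to 22.5 FPKM. FAM13B, a gene of a GTPase-activating protein family, included a 66-base exon at 38.9%, 32.1%, 6.76% and 0.006%. The 114-base exon of UBE4B, a ubiquitin ligase gene, stood at 84.5%, 86.6%, 55.3% and 58.6%. ZSWIM8, a gene for a substrate receptor of a ubiquitin ligase, included a 97-base exon at 29.8% and 26.7% in the uninjured libraries and at 0% in the injured ones. In these exons the uninjured libraries lay close to each other and apart from the injured ones. The 83-base exon of MARK4, a further kinase of the microtubule-affinity family, stood at 69.1%, 48.9%, 24.2% and 26.2%. The 123-base exon of akap13, a gene for an anchor of protein kinase A, stood at 31.7%, 52.7%, 9.79% and 11.7%. The uninjured libraries of these genes differed from each other by about as much as they did from the nearer injured one. CLK2, a kinase that phosphorylates SR proteins, had a 91-base exon at 69.1%, 70.2%, 47.2% and 41.8%, and pooling it with an exon that shares its skip junction brought the DMSO difference to −18.0 points.

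With 0.5 FPKM added to each form 3 of these exons came under 20 points in one pair. MARK4 then differed by −19.4 points in SIS3, akap13 by −18.9 points in DMSO and CLK2 by −19.8 points in DMSO. A further 4 exons of the 14 that were lower fell outside the rule for naming genes, which leaves out clone names, and were chosen after their values were seen. NFYA, a subunit gene of the CCAAT-binding factor, had a 72-base exon at 20.9%, 38.7%, 0% and 0%. The 66-base exon of CDC14B, a phosphatase gene, stood at 38.1%, 35.8%, 17.8% and 14.5%, but with an exon of the same skip junction pooled its differences were −3.02 and −9.39 points, and with 0.5 FPKM added it differed by −19.6 points in DMSO. The exon of ENSDARG00000099668 (75 bases) stood at 61.1%, 81.4%, 40.2% and 32.8%. The last, a 71-base exon of a gene known only by a clone name, stood at 83.6%, 82.8%, 57.8% and 52.1%.

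The second question was which exons differ between SIS3 and DMSO. Without injury 34 exons had a higher and 24 a lower share in SIS3, 58 in all or 7.69%, against 10.5% of cassette exons of any length (5.76 higher and 4.7 lower). After injury 37 were higher and 35 lower, 72 in all or 9.55%, against a background of 10.6% (6 higher and 4.62 lower). A form was at 0 in a library of the pair for 21 of the 58 exons without injury and 33 of the 72 after it. Such a 0 can be a failed estimate. Among exons of up to 60 bases 14.8% and 12.3% differed. The pair of uninjured libraries was the closest of all, with a mean absolute difference of 6.55 points and a Pearson's r of 0.964 over the 754 exons. The injured pair differed by 7.73 points on average (r = 0.948), and the pairs that differ in injury by 8.13 to 9.11 points.

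The SIS3 pairs without and after injury have no library in common either. In both, 11 exons differed in the same direction, 8 higher and 3 lower in SIS3, and 4 in opposite directions. They are 1.46% of the exons, close to the 1.3% of cassette exons of any length (0.973 higher and 0.324 lower). They make up 19.0% of the exons that differed without injury and 15.3% of those that differed after it, and r across the 754 exons was 0.11. Of the 11, 9 had a length divisible by 3, against 62.2% of all 754 exons. In 8 both forms were listed in every library, against 46.3% of all, a contrast that the selection favours as in the injury pairs. Both counts include the exons of MLLT10, which have the same values, as described below.

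AP2A1, chosen after its values were seen, was the only one of the 11 above 50 FPKM in every library. The gene encodes the α subunit of AP-2, the adaptor of clathrin-coated pits. Its 72-base exon (chromosome 3, 32260764 to 32260835, plus strand) was included at 35.4%, 63.5%, 33.8% and 66.2%, so that the SIS3 libraries matched each other in uninjured and injured hearts. The included form was at 19.7, 33.9, 23.2 and 43.1 FPKM and the skipped form at 36.1, 19.5, 45.5 and 22.0 FPKM. The summed level hardly moved, at 55.8, 53.4, 68.7 and 65.2 FPKM.

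TJP1, likewise chosen after its values were seen, encodes ZO-1, a scaffold that ties tight and adherens junctions to actin. The 213-base exon (chromosome 7, 30852087 to 30852299, plus strand) was included at 82.1%, 50.3%, 77.1% and 46.3%. The DMSO libraries stood together at the higher share and the SIS3 libraries together at the lower one. The skipped form was at 4.81, 10.3, 6.69 and 16.6 FPKM and the included form at 22.1, 10.4, 22.5 and 14.3 FPKM. A 219-base exon of the related gene tjp1b, also chosen after its values were seen, stood at 87.6%, 57.5%, 73.0% and 74.7%, lower in SIS3 without injury but not after it.

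RBM39, which encodes a splicing factor that works with U2AF at the 3′ splice site, had a 61-base exon (chromosome 11, 24102772 to 24102832, plus strand). Its length is not divisible by 3. It was included at 41.9%, 9.60%, 37.8% and 10.02%. Both SIS3 libraries were at a similar low share. The included form was at 10.4, 3.83, 7.81 and 2.51 FPKM and the skipped form at 14.4, 36.1, 12.9 and 22.5 FPKM.

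Exons of MLLT10 and brd3b were at or below 9.57% in both DMSO libraries. MLLT10 encodes a partner of the histone methyltransferase DOT1L. Its exons of 126 and 90 bases were both at 0.244%, 40.9%, 0.405% and 39.8%, and since they have the same values in both forms they stand for one choice between transcripts. The summed level of MLLT10 at these exons was low, between 6.75 and 12.4 FPKM. The 69-base exon of brd3b, a gene of a bromodomain protein that reads acetylated histones, stood at 5.01%, 53.6%, 9.57% and 31.5%, and with 0.5 FPKM added to each form it differed by 19.96 points after injury. Its duplicate brd3a, chosen after its values were seen, had an exon of the same length at 58.0%, 52.7%, 100% and 57.2%, where SIS3 was not higher.

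Tetraspanin gene cd9a differed most widely, with a 158-base exon at 41.9%, 0%, 100% and 0%, although 1 of its forms was not listed in 3 of the 4 libraries and its lowest summed level was 8.26 FPKM. The other exons that differed in both SIS3 pairs were chosen after their values were seen. AFTPH, a gene of clathrin-dependent transport, had an 84-base exon at 38.8%, 66.3%, 22.5% and 42.7%. The exon of f8a (69 bases) stood at 59.13%, 88.0%, 48.5% and 70.1%. Both blf (84 bases, a zinc finger gene) and SLK (93 bases, a kinase gene of the cytoskeleton) were at 0% in DMSO, with 26.7% and 20.1% for blf and 27.4% and 32.0% for SLK in the SIS3 libraries. Pooled with an exon of the same skip junction, SLK differed by 1.69 points after injury. With 0.5 FPKM added to each form AFTPH differed by 17.8, f8a by 19.6 and blf by 19.2 points after injury, so these 3 and brd3b are the exons that no longer differed in both pairs.

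**Figure D4:**
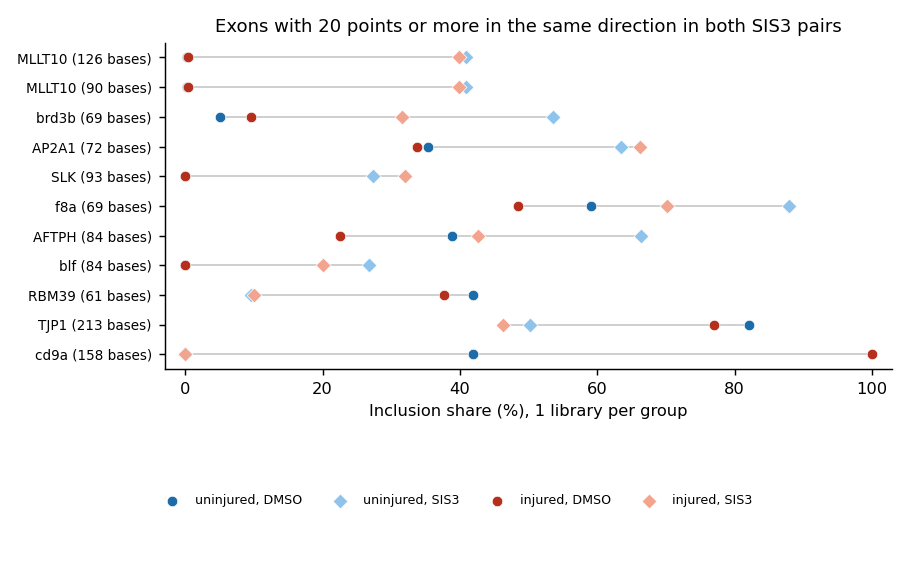
Inclusion share in each of the 4 libraries (horizontal axis, percent) for the 11 exons that differed by 20 points or more in the same direction in both SIS3 pairs; circles are DMSO, diamonds SIS3, blue uninjured and red injured, and a later symbol can cover an earlier one at the same value. The upper 8 exons are higher and the lower 3 lower in both SIS3 libraries.

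Other exons differed between SIS3 and DMSO only in one of the injury states, and the difference between the states was not tested. Without injury the highest difference was in SCRIB, a scaffold of cell polarity, whose 75-base exon stood at 29.0%, 85.3%, 51.8% and 46.2%. The 165-base exon of mffa, a receptor gene of mitochondrial fission, stood at 88.0%, 54.0%, 73.7% and 74.0%. Keratin gene krt91 had a 454-base exon at 38.6% in uninjured SIS3 and at 0% in the other libraries, where its included form was not listed. Its summed level was 94.3, 87.5, 16.5 and 7.31 FPKM. It is one of the skin genes given above, and the part of skin in this exon was not tested. In CTDSPL, a phosphatase gene, a 76-base exon was at 53.1% in uninjured DMSO and 0% elsewhere, but with the exons of its skip junction pooled the share was 69.7%, 49.9%, 74.1% and 77.4%.

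After injury, ADD3 and KARS1 were among the exons that were higher in SIS3. For ADD3, a gene of the spectrin-actin skeleton, an 81-base exon was at 31.5%, 41.3%, 0% and 38.4%, so injured DMSO was the library apart. The 131-base exon of KARS1, which encodes lysyl-tRNA synthetase, was at 28.2%, 22.7%, 11.7% and 54.4% with a summed level of 114, 111, 59.0 and 108 FPKM. Liver genes were also highest in injured SIS3, at 2480 scaled FPKM, and their part in KARS1 was not tested.

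In a further set 1 injured library stood apart from the other 3. The 72-base exon of ssbp3b, a gene of a transcriptional co-regulator, was at 98.9%, 99.7%, 43.4% and 99.8%. A 126-base exon of brd3b was at 8.89%, 6.87%, 99.8% and 5.40%, and the 93-base exon of KLHDC10 at 27.6%, 28.2%, 95.0% and 31.3%. For these 3 exons injured DMSO was the outlying library. ORC1, which encodes the largest subunit of the origin recognition complex, had a 117-base exon at 44.0%, 53.3%, 53.5% and 0%, with injured SIS3 apart. A value that rests on 1 library enters each comparison that uses it, so the difference for injury and for SIS3 in such exons is the same measurement.

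The shares ranged less widely in exons of higher expression level. The range over the 4 libraries had a median of 14.4 points in exons with a lowest summed level of 5 to 10 FPKM, 9.91 points at 10 to 20, 9.02 points at 20 to 50 and 4.48 points at 50 or more. SIS3 after injury differed in 13.8%, 2.99%, 7.62% and 6% of the exons of these classes, which hold 398, 201, 105 and 50 exons. SIS3 without injury differed in 9.05%, 7.46%, 4.76% and 4%.

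**Figure D5:**
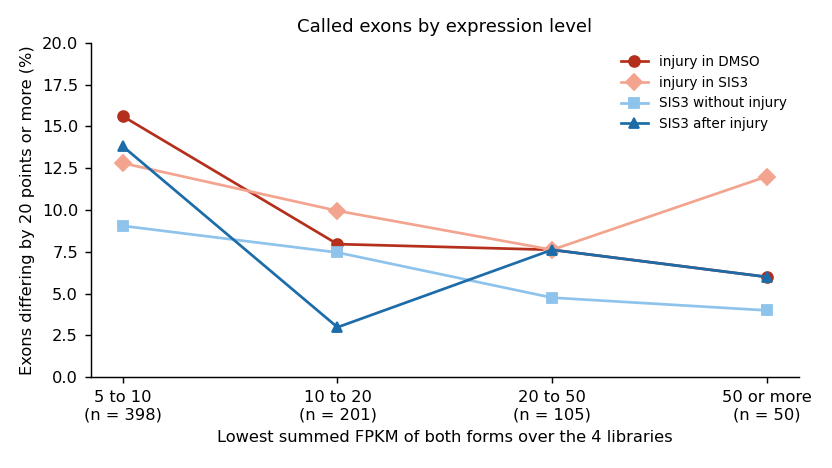
Percent of exons that differed by 20 points or more (vertical axis) by the lowest summed FPKM of both forms over the 4 libraries (horizontal axis, 4 classes with the number of exons), for each of the 4 comparisons. The lowest class is the highest in each comparison, at 15.6%, 12.8%, 9.05% and 13.8%, and injury in SIS3 is at 12% in the highest class.

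In most exons that differed, the summed level of both forms did not differ 2-fold. Among the 89 exons that differed by injury in DMSO, 14 (15.7%) had a summed level that differed at least 2-fold, against 10.2% of all 754. For injury in SIS3 it was 10 of 85 (11.8%) against 8.22%. For SIS3 without injury it was 6 of 58 (10.3%) against 3.85%, and for SIS3 after injury 4 of 72 (5.56%) against 2.92%. In all 4 comparisons the percent was thus higher among the exons that differed than among all exons.

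Lists of genes by function were described by the range of their exons' shares. The list of sarcomere, Z-disc and contractile genes held 19 exons in 11 genes, and 9 of them (47.4%) ranged over at least 20 points, against 25.6% of all exons. Their median range was 17.2 points against 11.4. Injury in DMSO gave 3 higher and 1 lower of the 19, against 41 and 48 of all 754, and SIS3 after injury gave 0 higher and 6 lower, against 37 and 35. The 6 include all 3 exons of FLNC, the filamin of the Z-disc, and 2 of the 3 higher exons were in FLNC too. Exons of the same gene are not separate observations. The 93-base exon of FLNC was at 64.7%, 61.6%, 100% and 65.4%, with a summed level of 17.6, 18.0, 5.84 and 22.7 FPKM, the least in injured DMSO. Its 123-base exon had the same summed level but stood at 40.3%, 34.1%, 72.2% and 41.3%, so the included transcripts are not all the same.

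A further list held genes of actin, junctions and epithelial-mesenchymal transition that have cassette exons known in mammals. Genes were matched by symbol, and their exons were not matched to the mammalian ones. In this list 20 of 42 exons (47.6%) in 28 genes ranged over at least 20 points, with a median range of 17.1 points. The directions were mixed, with 6 higher and 3 lower for injury in DMSO, 3 and 5 for injury in SIS3, 6 and 3 for SIS3 without injury, and 3 and 5 for SIS3 after injury. Over all 754 exons the counts in the same order were 41 and 48, 38 and 47, 34 and 24, and 37 and 35. ENAH, whose protein elongates actin filaments, had a 729-base exon at 27.0%, 40.0%, 0% and 26.2%, and MYO18A, an unconventional myosin gene, a 1473-base exon at 53.9%, 33.0%, 0% and 26.3%. In both, injured DMSO had no included form. CTNND1 encodes p120 catenin, which stabilises cadherins, and its 152-base exon stood at 85.0%, 66.9%, 90.4% and 66.5%. With the events of that exon summed over all flanking ends, the SIS3 difference after injury was −1.5 points in place of −24.0.

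Of the listed splicing regulators and RNA-binding proteins, 7 of 29 exons (24.1%) in 23 genes ranged over at least 20 points. Over all exons it was 25.6%. The median range of the list was 8.38 points, against 11.4. Exons of rbm14a, given above, and rbfox1l, given below, also ranged over at least 20 points but are not on the list. The percent therefore describes the list and not all genes of this kind. SRSF6, an SR protein gene, had a 164-base exon at 82.5%, 40.9%, 65.5% and 100%, but with the exons of its skip junction pooled the share was 87.6%, 85.3%, 65.5% and 100%. RBM5 (74 bases) stood at 68.0%, 48.8%, 82.5% and 70.9%, and DAZAP1 (90 bases) at 17.7%, 32.4%, 0% and 26.0%. Exons of TRA2A, TRA2B and srsf2a were mostly skipped. The 260-base exon of TRA2B stood at 7.13%, 0.402%, 3.50% and 0.421%, and the 141-base exon of srsf2a at or below 0.087% in all 4 libraries.

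Of the listed transcription and signalling regulators, 5 of 15 exons (33.3%) in 14 genes ranged over at least 20 points, against 25.6% of all exons. The list does not hold baz2a, brd3b, ssbp3b, MLLT10, NFYA or CUX1, which have exons that ranged over at least 20 points. The percent therefore describes the list and not all genes of this kind. Among the listed exons were those of mark3a and MARK4 above. MARK3 (180 bases) stood at 24.3%, 17.9%, 2.06% and 31.8%, and NCOR1, a nuclear receptor co-repressor gene, had a 150-base exon at 73.1%, 82.8%, 100% and 86.4%. In the TGF-β pathway that SIS3 acts on, the 79-base exon of SMAD2 was at 61.5%, 69.3%, 67.2% and 63.8%, and a 126-base exon of SMAD4, chosen after its values were seen, at 67.4%, 65.4%, 66.7% and 73.5%. Both stayed within 10 points over the 4 libraries. A 61-base exon of SMAD1, also chosen after its values were seen, stood at 0%, 14.3%, 0% and 0%. Its included form was at 1.05 FPKM in uninjured SIS3 and was not listed elsewhere. The 267-base exon of FGFR2, a fibroblast growth factor receptor gene, stood at 83.8%, 80.8%, 83.7% and 89.7%.

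Of the 4 exons on the list of matrix and adhesion genes, 0 ranged over 20 points, against 25.6% of all exons. With so few exons this is near the background, and what follows describes single exons. The 279-base exon of FN1, a fibronectin gene (chromosome 1, 4818723 to 4819001, minus strand), was included at 19.8%, 22.4%, 21.5% and 25.1%. Over the same libraries the summed level of FN1 was 84.3, 89.8, 519 and 485 FPKM. Both forms were thus higher in the injured libraries in nearly the same ratio. The 63-base exon of PLOD2, a collagen-modifying lysyl hydroxylase gene, stood at 55.2%, 66.1%, 53.8% and 61.5%, and the 141-base exon of FBLN2, a fibulin gene, at 42.3%, 41.3%, 43.9% and 46.7%. The 2010-base exon of emilin1a stood at 100%, 100%, 88.3% and 86.4%.

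Among 6 exons in 4 genes of calcium handling and excitation, 1 (16.7%) ranged over 20 points, against 25.6% of all exons. This was the 105-base exon of camk2g1, a calcium- and calmodulin-dependent kinase gene, at 18.2%, 17.3%, 51.6% and 0%. With its events summed over flanking ends, injury in DMSO differed by 15.4 in place of 33.5 points. Of 7 exon events in 5 genes of mitochondria and energy metabolism, 4 (57.1%) ranged over 20 points, against 25.6% of all exons. The same exon of ndufv3 enters these counts more than once. PHKB, a subunit gene of phosphorylase kinase, included a 97-base exon at 98.4%, 98.3%, 100% and 52.6%, with injured SIS3 apart. The 1125-base exon of ndufv3, a complex I subunit gene, gave 3 events with different flanking ends. Events of this exon with ranges of 26.4 and 20.7 points are among the 4. In one of them the share was 13.4%, 23.3%, 34.1% and 31.8%, and with all 3 summed the injury differences were 15.3 and 12.9 points.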

How the data were processed

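RNA sequencing of larval hearts gave 4 tables of FPKM per transcript event, computed and deposited by the authors. Per the submitters' processing notes, the build was GRCz10 and the tools were HISAT2 2.0.5, CASAVA 1.8 and HTSeq 0.6.1, in no stated order. Their roles and the program that made the event values are not given in the sources used here. Total RNA was extracted with Trizol, per the labels' protocols, which give 2.17 µg for the injured and 1.95 µg for the SIS3-treated injured hearts. Only values above 0 are listed, so a form not listed counted as 0, which can be a failed estimate. Read depth is unknown, so no counting interval is given.

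Included and skipped forms were paired on the same flanking exon ends. Of the 754 exons, 63 share a skip junction with another exon, and 44 (5.84%) have the same summed levels as another. How the event values were built from transcripts is not stated in the sources used here. Shares were computed with no pseudocount, and a difference of 20 points counted. Comparisons use 1 library per group, so no test was made; the labels do not say whether a library pools animals. The steps were checked on simulated data that left out members sharing a skip junction and started from intermediate shares. That check therefore does not cover shared junctions and hardly covers forms at 0. Marker sums used FPKM scaled by the median of ratios over 13391 genes (log2 factors of −0.12, −0.02, 0.11 and 0.06).

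Symbols came from a gene name table by gene ID, in the case it gives. Of the members 20 had a gene ID without a symbol, 6 had no gene ID, and 7 symbols belonged to more than 1 gene ID. Named exons, of genes whose symbol is not a clone name, are the 10 highest and 10 lowest of those that differed in both injury pairs, the 5 highest and 5 lowest per SIS3 comparison, up to 4 per gene list by range, those of 42 fixed names (13 had a member), and the 5 of smallest range between 20% and 80%; others are marked as chosen after their values were seen. The results for 2 genes are not reported here. Members and lists were chosen with earlier results of these data known. Alternatives changed the minimum, the threshold, the treatment of forms at 0, the scaling and the grouping of events. Python 3.11.15, pandas 2.3.3, numpy 2.4.6 and matplotlib 3.10.9 were used.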

Additional observations from a re-analysis of the deposited data

Results flagged for a closer look

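A small number of exons differed by 20 points or more in opposite directions in the 2 pairs of libraries of one contrast. The difference between the pairs was not tested, and with 1 library per group it has no replicate check.

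For injury, the 126-base exon of PCM1, a gene of the material around the centrosome, was 43.1 points higher after injury in DMSO and differed by −24.9 points in SIS3. The 75-base exon of SCRIB, described above, differed by 22.7 points in DMSO and by −39.1 points in SIS3. The 66-base exon of baz2a, a chromatin remodelling gene, differed by −35.8 points in DMSO and by 57.6 points in SIS3. Its shares were 98.1%, 41.1%, 62.3% and 98.7%, so the same 4 values also give −57.0 points for SIS3 without injury and 36.4 points for SIS3 after injury.

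For SIS3, the 123-base exon of SS18, a gene of a chromatin remodelling complex, differed by −27.1 points without and 27.1 points after injury, with shares of 66.9%, 39.8%, 31.8% and 58.9%. The 1473-base exon of MYO18A differed by −21.0 and 26.3 points, the first of which was −19.7 points with 0.5 FPKM added to each form. The 164-base exon of SRSF6 differed by −41.6 and 34.5 points, and its pooled share, given above, did not differ by 20 points without injury.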

How the results depend on the processing

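Counts are given in the order injury in DMSO, injury in SIS3, SIS3 without injury, SIS3 after injury, both injury pairs and both SIS3 pairs, and were 89, 85, 58, 72, 23 and 11. They depended on the minimum level and the threshold. A minimum of 10 FPKM (356 exons) gave 27, 34, 22, 17, 10 and 4, one of 20 FPKM (155 exons; added after seeing the data) 11, 14, 7, 11, 5 and 4, and one of 2 FPKM (1244 exons) 219, 207, 147, 187, 64 and 25. A threshold of 10 points gave 247, 224, 186, 217, 77 and 40, and one of 30 points 34, 33, 19, 34, 5 and 4. With both forms listed in all 4 libraries (349 exons) injury in SIS3 gave 49, SIS3 without injury 35 and SIS3 after injury 36, which as percents are 14.0, 10 and 10.3 against 11.3, 7.69 and 9.55; injury in DMSO went from 11.8% to 18.1%. With 0.5 FPKM added to each form 7 exons differed in both SIS3 pairs. The gap between the median shares of the length classes (15.7 points) was 0.2 at a minimum of 10 FPKM, 1.5 at 20, 25.2 at 2, 19.2 with a scaled minimum and 7.0 with both forms listed. The difference in exons between 20% and 80% (15.1 points) was 18.0 at a minimum of 2 FPKM, 19.2 with 0.5 FPKM added, 18.4 with both forms listed and 17.1 with 1 event per gene. Fewer or more exons enter at another minimum; the cause of the other shifts was not tested. Pooling the exons that share a skip junction, also added after seeing the data, turned the injury difference of CTDSPL in DMSO from −53.1 to 4.4 points; no other alternative run for a named exon reversed it.

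No paired analysis was possible because the groups share only 1 replicate number, with 1 library each; the 2 pairs without a common library are compared in its place. Leaving out a library would empty its group, so it was not run. Read depth is unknown, a form at 0 can be a failed estimate, and shares of exons from the same transcripts move together.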

Other observations

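Duplicated genes held 7 pairs of exons of equal length, some of which differed in share within the pair in all 4 libraries. The genes named here were chosen after their values were seen. The 81-base exon of the transcription factor gene CUX1 stood at 32.8%, 52.6%, 30.2% and 68.0%, and that of cux1b at 96.2%, 97.8%, 95.8% and 97.0%. The 132-base exon stood at 83.0%, 96.0%, 72.2% and 98.9% in phactr4a and at 22.5%, 16.4%, 17.5% and 26.0% in phactr4b.

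WNK1, with 4 measured exons, had an 81-base exon at 83.8%, 59.6%, 52.6% and 46.7% and a 225-base exon at 27.4%, 20.2%, 13.5% and 6.53%. Its 93-base exon and its 1284-base exon stayed at or below 13.1% in all 4 libraries. The 103-base exon of rbfox1l, a splicing regulator gene of muscle, chosen after its values were seen, stood at 12.0%, 10.01%, 0% and 32.6% with a summed level of 382, 343, 167 and 222 FPKM.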
